A study of Mus musculus with 2 samples.

Results

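The 47 genes described here encode Wnt ligands, their receptors and co-receptors, R-spondins, secreted inhibitors, and common target and TCF/LEF genes of the pathway. They were taken by gene symbol from a list drawn up by role in the pathway, with no threshold on a measured value, and all 47 were found among the 43346 genes of the deposited tables. They comprise 19 Wnt ligands, 10 Frizzled receptors, 2 Lrp co-receptors, 4 R-spondins, 7 secreted inhibitors and 5 target or TCF/LEF genes. The tissue was hindbrain of untreated, healthy B6NCrl embryos at day 15.5 of gestation, from which total RNA was sequenced. The only group had 2 biological replicates that pooled male and female embryos, 78 for replicate 1 and 62 for replicate 2, and both carry the same donor label. Each library was made from 10 ng of RNA longer than 200 nt, extracted with a mirVana kit, with spike-in RNAs added. No second tissue, stage or treatment was sampled, so the comparisons are those between genes and between the 2 pools.

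Wnt proteins are secreted lipid-modified signals that bind Frizzled receptors. With Lrp co-receptors they stabilise beta-catenin, which then activates target genes together with TCF/LEF transcription factors, and other Wnt signals act through planar cell polarity without beta-catenin. R-spondins strengthen the response, whereas Dickkopf, secreted Frizzled-related (Sfrp) and Wif proteins dampen it. In the developing hindbrain the pathway is known for its roles in dorsal patterning, growth of the rhombic lip and formation of brain vessels.

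Estimated counts in genes came to 40020322 in replicate 1 and 43263959 in replicate 2. Levels are in TPM, transcripts scaled to a common total, a relative abundance corrected for length, and are given per library or as mean ± SD with n = 2 throughout. A gene was called detected at 1 TPM or more in both libraries. By that rule 34 of the 47 members were detected, against 63.1% of the 21461 nuclear protein-coding genes. The median member stood at 3.07 TPM, below the median of 5.72 TPM for nuclear protein-coding genes. A further 11 members were under 1 TPM in both libraries, Wnt3a reached it in replicate 2 alone and Wnt11 in replicate 1 alone. Of the markers of the labelled tissue, all 12 hindbrain identity genes were detected. Of 9 forebrain genes 2, Six3 and Lhx2, reached 1 TPM in replicate 1 and 6, Lhx2, Dlx1, Tbr1, Dlx2, Dlx5 and Emx1, in replicate 2. Nkx2-1 had 0 and 3 counts. For a typical nuclear protein-coding gene above 1 TPM, 3 counts, the limit that a count of 0 allows, corresponded to 0.0476 TPM in the first library and 0.0449 TPM in the second. Without molecular identifiers, such limits and all intervals below cover counting error only. In bulk tissue a gene's level reflects both the number of cells that make it and the RNA per cell, and these cannot be told apart.

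**Figure D1:**
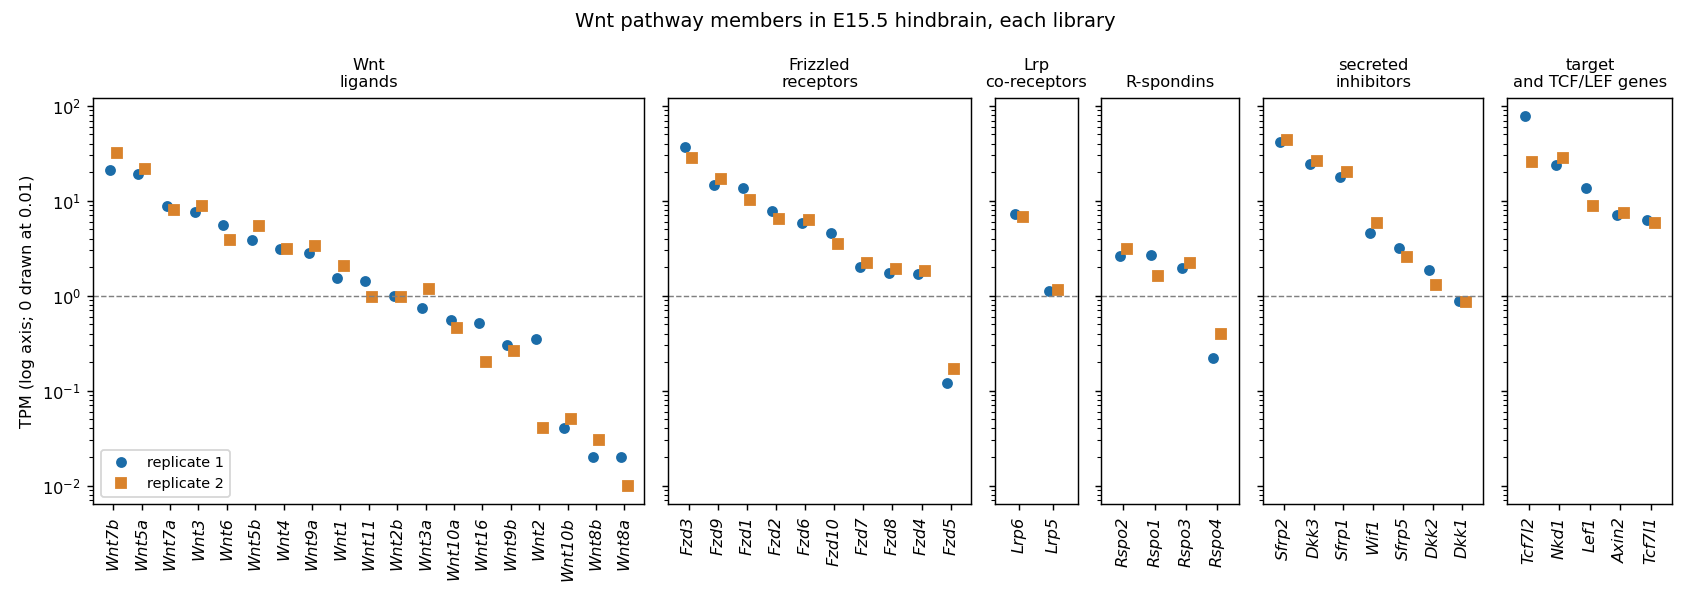
TPM of each of the 47 members (log axis) in replicate 1 (circles) and replicate 2 (squares), ordered by mean within 6 classes; the dashed line marks 1 TPM and a value of 0 is drawn at 0.01. Of the 19 ligands 9 lie above the line in both libraries, against 9 of 10 Frizzled receptors, and Tcf7l2 shows the widest gap between libraries among the 5 target and TCF/LEF genes, at 77.3 and 25.4 TPM.

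Of the 19 Wnt ligands 9 were detected, and their transcripts were dominated by Wnt7b and Wnt5a. Wnt7b, a ligand known for its action on brain endothelium, measured 21.1 TPM in replicate 1 and, higher, 31.8 TPM in replicate 2. Its gene lies on chromosome 15 from 85535437 to 85582473 (GRCm38). Wnt5a, best known for signalling without beta-catenin and located on chromosome 14 from 28504750 to 28527448, had 18.9 and 21.6 TPM. The 2 genes' values overlapped, since Wnt5a in replicate 2 lay above Wnt7b in replicate 1. On coding transcripts alone they did not overlap, since these summed to 13.0 and 16.5 TPM for Wnt5a and to 21.1 and 31.8 TPM for Wnt7b. Over all transcripts the 2 genes held 54.6 ± 4.83% of the summed TPM of all 19 ligands, and with Wnt7a and Wnt3 the share was 74.2 ± 3.10%. Wnt7a, the close relative of Wnt7b, had 8.73 and 8.02 TPM. Wnt3, an activator of the beta-catenin branch, had 7.53 and 8.85 TPM, a range that covered that of Wnt7a. Both genes lay below Wnt5a and above every other ligand in each library.

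Wnt6 and Wnt5b formed the next step, with overlapping ranges. Wnt6 had 5.58 and 3.82 TPM, and Wnt5b 3.90 and 5.36 TPM. Wnt4 had 3.11 and 3.07 TPM and Wnt9a 2.82 and 3.32 TPM, so these neighbours in the order did not differ beyond their spread. Wnt1, which is made at the boundary of midbrain and hindbrain and in the dorsal midline, was the lowest detected ligand at 1.53 and 2.04 TPM. Wnt11 had 1.44 and 0.97 TPM, Wnt2b 0.99 and 0.96, and Wnt3a, a dorsal midline ligand, 0.75 and 1.18, and these 3 overlapped around the detection minimum. The other 7 ligands, Wnt2, Wnt8a, Wnt8b, Wnt9b, Wnt10a, Wnt10b and Wnt16, were at or below 0.55 TPM in both libraries, with Wnt10a the highest of them by mean. Wnt8a had 1 count in replicate 1 and none in replicate 2, where 3 counts would correspond to 0.0667 TPM.

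Ligand genes that share a number arose as duplicates and were expressed unequally. By mean TPM, Wnt5a stood 4.37-fold above Wnt5b, Wnt7b 3.16-fold above Wnt7a and Wnt3 8.49-fold above Wnt3a. Wnt9a stood 11.0-fold above Wnt9b, which had 34 and 32 counts. In each of these 4 pairs the lower gene was below the higher one in both libraries. Wnt2b exceeded Wnt2, but Wnt2 rested on 15 counts in replicate 1 and 2 in replicate 2. Wnt10a had 26 and 17 counts and Wnt10b 2 and 2, while Wnt8a and Wnt8b had at most 3, so no ratio is given for these pairs.

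Pairs of ligand genes that sit next to each other, with no coding gene between them in the annotation, were also unequal. On chromosome 11 Wnt3 and Wnt9b point away from each other across 24328 bases, and Wnt3 was 29.3-fold higher. On the same chromosome Wnt3a and Wnt9a are also divergent, 16175 bases apart, and there Wnt9a was 3.18-fold higher. Wnt6 and Wnt10a lie 6193 bases apart on the same strand of chromosome 1, and Wnt6 was 9.31-fold higher. Wnt1 and Wnt10b on chromosome 15 are 11706 bases apart and divergent. Wnt1 had 90 and 127 counts, whereas Wnt10b had 2 in each library. Thus 1 gene of each of the 4 neighbouring pairs was detected and the other was not.

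Of the 10 Frizzled receptors 9 were detected, and Fzd3 was the highest. Fzd3, a receptor needed for axon tract formation, lies on chromosome 14 from 65192449 to 65262463 and had 36.7 and 28.3 TPM in the 2 libraries. It held 38.7 ± 3.43% of the summed Frizzled TPM. Fzd9 followed at 14.8 and 16.9 TPM, and Fzd1 at 13.8 and 10.3 TPM. Fzd9 exceeded Fzd1 and lay below Fzd3 in both libraries. A middle group held Fzd2 at 7.85 and 6.41 TPM, Fzd6 at 5.78 and 6.27 TPM and Fzd10 at 4.62 and 3.54 TPM, which kept this order in both libraries. Fzd7 at 2.01 and 2.23 TPM, Fzd8 at 1.74 and 1.90 TPM and Fzd4, the receptor that also binds Norrin in vessels, at 1.70 and 1.84 TPM were low. Fzd8 and Fzd4 had overlapping ranges. Fzd5 was the only Frizzled gene not detected, at 0.12 and 0.17 TPM. The median Frizzled gene had 5.05 ± 0.209 TPM and the median ligand 1.21 ± 0.184 TPM.

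Of the 2 co-receptors Lrp6 was the more abundant, at 7.34 and 6.71 TPM, against 1.13 and 1.15 TPM for Lrp5. Lrp6 accounted for 86.0 ± 0.912% of their sum. Among R-spondins, which keep Frizzled receptors on the cell surface, 3 of 4 were detected. Rspo2 had 2.59 and 3.11 TPM, Rspo3 1.97 and 2.20 TPM and Rspo1 2.70 and 1.62 TPM, so the range of Rspo1 covered that of Rspo3 and reached into that of Rspo2. Rspo4 was at 0.22 and 0.40 TPM. The TPM of Rspo1 differed between libraries although each held 77 counts. In replicate 1 a noncoding transcript of 446 nt, Rspo1-202, was given 1.24 TPM from 11.1 counts, and in replicate 2 none. The coding transcript Rspo1-201 had 1.47 and 1.62 TPM. Short noncoding transcripts entered the TPM of Wnt6 and Wnt7a in the same way, and their coding transcripts summed to 4.38 and 3.82 TPM for Wnt6 and 7.10 and 7.80 TPM for Wnt7a.

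Of the 7 secreted inhibitors 6 were detected, and their most abundant member was Sfrp2, a decoy that resembles the Wnt-binding part of Frizzled receptors. Sfrp2, on chromosome 3 from 83766321 to 83774316, had 41.9 and 43.3 TPM, above every ligand and every Frizzled gene in both libraries. Dkk3, a divergent Dickkopf family gene, had 24.3 and 26.5 TPM. Sfrp1, another decoy, had 17.8 and 20.1 TPM. These 3 genes held 89.2 ± 0.442% of the summed TPM of the class and kept the same order in both libraries. Wif1, whose product binds Wnt ligands outside the cell, had 4.61 and 5.82 TPM, and Sfrp5 had 3.18 and 2.58 TPM. Dkk2 had 1.86 and 1.31 TPM, and Dkk1, an inhibitor that binds Lrp5 and Lrp6, stood below the detection minimum at 0.88 and 0.85 TPM. Summed over each class, inhibitors had 97.5 ± 4.17 TPM, ligands 85.1 ± 9.77 TPM and Frizzled genes 83.4 ± 7.93 TPM. By library, inhibitors summed to 94.54 and 100.44 TPM, above ligands at 78.21 and 92.02 TPM and Frizzled genes at 89.05 and 77.84 TPM. Dkk3 supplied 24.3 and 26.5 TPM of the inhibitor sums, and without it they would lie below both other classes in each library. The values of ligands and Frizzled genes overlapped.

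All 5 target and TCF/LEF genes were detected. The feedback genes were similar in both pools. Nkd1, which encodes a Dishevelled-binding inhibitor, had 23.7 and 28.4 TPM, and Axin2, a scaffold of the complex that degrades beta-catenin, had 7.16 and 7.40 TPM, of which coding transcripts took 5.80 and 6.81 TPM. Tcf7l1, a TCF factor that acts largely as a repressor, had 6.28 and 5.80 TPM. Lef1, which encodes a DNA-binding partner of beta-catenin, had 13.6 TPM in the first pool and 8.86 TPM in the second. Tcf7l2, another such partner, stood at 77.3 TPM in replicate 1 but 25.4 TPM in replicate 2, and was the highest of the 47 members by mean. In replicate 2 Sfrp2, Wnt7b, Nkd1, Fzd3 and Dkk3 were above it, and in replicate 1 none was.

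Promoters of Axin2, Nkd1 and Lef1 were chosen beforehand as those of target genes, and those of Tcf7l2 were added after its values were seen. The part of these sequences in any difference between the pools was not tested. Below are the 250 bases upstream of starts given by RefSeq (GRCm38.p6), all on the plus strand and read 5′ to 3′. Capitals mark a 7-base word that TCF and LEF proteins are known to bind, namely CTTTG followed by AA, AT, TA or TT, searched on both strands, and a sequence without capitals holds none. The windows are chr19:55741560-55741809 before the upstream start of Tcf7l2, chr19:55895071-55895320 before an internal start of Tcf7l2, chr3:131110047-131110296 before the upstream start of Lef1, chr3:131156044-131156293 before an internal start of Lef1 and chr11:108920099-108920348 before Axin2.
Tcf7l2 upstream start: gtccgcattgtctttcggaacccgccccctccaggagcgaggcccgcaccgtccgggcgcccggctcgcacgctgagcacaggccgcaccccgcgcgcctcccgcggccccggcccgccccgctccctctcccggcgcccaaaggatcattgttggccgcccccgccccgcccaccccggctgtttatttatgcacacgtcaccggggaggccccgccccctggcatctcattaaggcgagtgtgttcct
Tcf7l2 internal start: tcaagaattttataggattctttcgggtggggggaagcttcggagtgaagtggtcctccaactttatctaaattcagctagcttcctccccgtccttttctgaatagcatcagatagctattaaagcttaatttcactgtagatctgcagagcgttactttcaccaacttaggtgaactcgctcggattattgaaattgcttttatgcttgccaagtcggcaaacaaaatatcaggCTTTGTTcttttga
Lef1 upstream start: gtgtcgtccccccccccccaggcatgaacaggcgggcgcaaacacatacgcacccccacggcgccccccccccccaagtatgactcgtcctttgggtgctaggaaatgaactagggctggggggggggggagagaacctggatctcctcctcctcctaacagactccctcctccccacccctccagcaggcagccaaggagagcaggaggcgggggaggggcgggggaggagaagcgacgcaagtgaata
Lef1 internal start: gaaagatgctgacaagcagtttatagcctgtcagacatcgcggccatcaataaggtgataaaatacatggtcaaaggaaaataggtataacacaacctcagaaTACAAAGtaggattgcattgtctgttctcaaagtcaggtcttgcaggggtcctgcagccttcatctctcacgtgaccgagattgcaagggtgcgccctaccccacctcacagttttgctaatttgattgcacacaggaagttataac
Axin2: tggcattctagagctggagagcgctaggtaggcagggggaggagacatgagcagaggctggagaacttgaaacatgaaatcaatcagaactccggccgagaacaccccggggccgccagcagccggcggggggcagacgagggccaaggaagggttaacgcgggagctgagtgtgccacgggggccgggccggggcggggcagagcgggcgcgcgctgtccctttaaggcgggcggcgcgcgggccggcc
Of these 5 windows, that of the internal Tcf7l2 start held CTTTGTT, and that of the internal Lef1 start held CTTTGTA on the minus strand, printed as its reverse complement. The other 3 held none of the words, nor did the windows of Tcf7l1 and Nkd1 and the 2 further windows of Lef1, which are not shown. Distances were taken from the start of each gene's leading transcript by mean TPM. The upstream and internal starts lay 522 and 152989 bases away for Tcf7l2 and 174 and 45823 bases away for Lef1. For Axin2 the distance was 0. No quantified Lef1 transcript began at the internal Lef1 start. RefSeq gave 40 windows for 33 members, and 6 of them, 15.0%, held at least 1 of the words, near the 14.8% of all 32851 windows in the table. A match describes letters and was not tested as a binding site.

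Transcripts of Tcf7l2 fell into those from the upstream start and those from internal starts far downstream, and both kinds were lower in replicate 2. The 16 transcripts with the upstream start summed to 61.7 TPM in replicate 1 but 22.1 TPM in replicate 2, and scaled counts were 2.86-fold lower in replicate 2 (95% interval 2.70 to 3.02). The 6 transcripts with internal starts came to 15.7 and 3.30 TPM together and were 3.83-fold lower (3.17 to 4.68). Of their 487.66 and 137.34 counts, Tcf7l2-218 alone held 118.67 and 5.3, a 22.1-fold lower value, and weighed on the larger fold of this group. Counts of overlapping transcripts are estimates, and the intervals leave out the error of assigning reads to them. Tcf7l2-209 led in both libraries, with 34.4 and 11.5 TPM, or 44.4% and 45.4% of the gene. The first coding stretch of Tcf7l2-209, at chr19:55742342-55742530, codes for the start of the protein, which binds beta-catenin. It is shown with its start codon in capitals. Below it stands exon 6 of Lef1-201, at chr3:131191023-131191106, an 84-nt coding exon on the plus strand that Lef1-202 and Lef1-204 lack. Lef1-204 also lacks a 32-nt exon near the end of the coding sequence.
Tcf7l2-209 first coding stretch: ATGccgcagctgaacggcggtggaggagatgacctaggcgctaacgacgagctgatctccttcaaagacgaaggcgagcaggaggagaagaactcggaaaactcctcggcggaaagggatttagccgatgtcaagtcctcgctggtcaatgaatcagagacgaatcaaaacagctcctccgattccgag
Lef1-201 exon 6: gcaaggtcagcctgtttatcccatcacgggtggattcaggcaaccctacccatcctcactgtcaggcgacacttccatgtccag
The 9 coding Tcf7l2 transcripts that hold the first stretch summed to 45.0 and 16.8 TPM. The 3 coding transcripts without it, 2 of which are incomplete models, summed to 13.6 and 2.25 TPM. The complete one of these, Tcf7l2-203, had 4.22 and 1.37 TPM. The 10 transcripts with no coding sequence summed to 18.7 and 6.35 TPM. All 3 kinds were thus lower in replicate 2.

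Lef1 transcripts did not keep the same order in the 2 libraries. Lef1-204 led in replicate 1 with 6.72 TPM, 49.3% of the gene, and had 2.88 TPM in replicate 2. Lef1-202 led in replicate 2 with 3.07 TPM, 34.7% of the gene, after 4.50 TPM in replicate 1. Lef1-201, which holds exon 6, had 1.11 TPM in replicate 1 but 2.37 TPM in replicate 2, so its share went from 8.14% to 26.7%. Among 18 detected members with several transcripts, Lef1 was the 1 whose leading transcript differed, against 7.85% of 9877 such coding genes. With posterior mean TPM it no longer differed. The leading transcript held under 50% of the gene in both libraries in 3 of the 18, Wnt5a, Tcf7l2 and Lef1, against 20.6% of the coding genes. For Wnt5a, Wnt5a-202 had 7.08 and 10.4 TPM and Wnt5a-201 had 5.89 and 6.08 TPM. Wnt7b was led by Wnt7b-201 at 16.0 and 24.5 TPM, with Wnt7b-202 at 5.08 and 6.75 TPM.

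**Figure D2:**
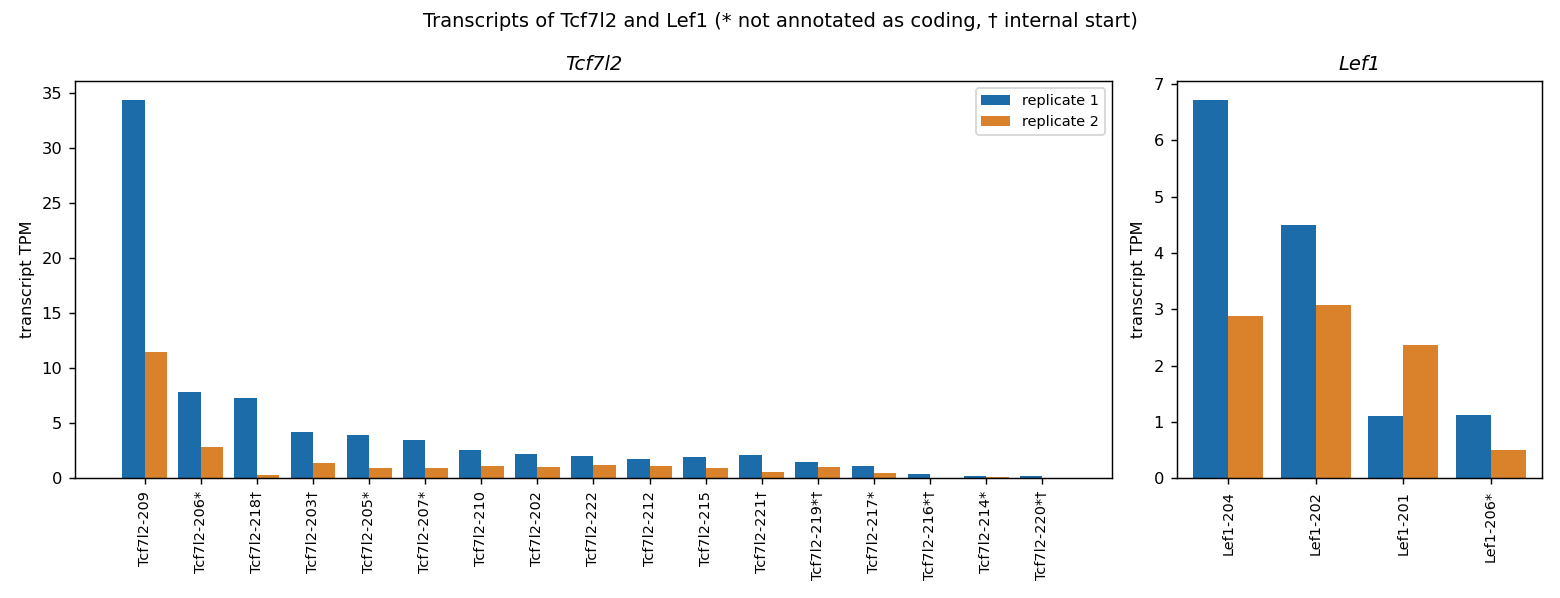
TPM of the transcripts of Tcf7l2 (left) and Lef1 (right) that reached 0.2 TPM in a library, replicate 1 in blue and replicate 2 in orange; an asterisk marks transcripts not annotated as coding and a dagger internal starts of Tcf7l2. Tcf7l2-209 is the tallest in both libraries at 34.4 and 11.5 TPM, while among Lef1 transcripts Lef1-204 is the tallest in replicate 1 and Lef1-202 in replicate 2.

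The pools were compared by the ratio of scaled counts, replicate 2 over replicate 1, and a difference past 1.5-fold was called. With 1 library per pool no test of the pools was possible and no p-value is given. Of the 47 members 41 had a mean count of at least 20 and were compared. Wnt3a was the 1 member called higher in replicate 2, where 2.23% of all 17048 genes compared were called, and 3 members, Wnt10a, Lef1 and Tcf7l2, were called lower, against 4.22% of all genes. Among nuclear protein-coding genes compared, a background added after the data were seen, the shares were 1.76% and 3.13%. The median log2 ratio over members was 0.08 and that over all genes 0.00. The median size of the log2 ratio, leaving its sign aside, was 0.20 for members and 0.11 for all genes compared.

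Tcf7l2 had 5056 counts in replicate 1 and 1861 in replicate 2. It was 2.93-fold lower in replicate 2 after scaling (95% interval 2.78 to 3.09, log2 ratio -1.55), and it ranked 89 from the lowest ratio among the 17048 genes compared. It was the 1 member past 2-fold, a size that 1.33% of all genes passed in that direction. Lef1, with 1121 and 783 counts, was 1.54-fold lower (1.41 to 1.69, log2 ratio -0.63). The lower bound for Lef1 lies inside 1.5-fold, and with TPM ratios and a pseudocount of 1 its log2 ratio no longer passed. Wnt10a rested on 26 and 17 counts (log2 ratio -0.71), and the interval of its ratio, 0.309 to 1.16, included 1. Wnt3a had 52 and 86 counts and a ratio of 1.53 with an interval of 1.07 to 2.21, and it was not called with spike-in scaling.

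Members just inside the threshold included Wnt7b, whose ratio was 1.47 (1.39 to 1.56), and Dkk2, whose log2 ratio was -0.53. Fzd1 and Fzd3 were lower in replicate 2, with ratios of 0.734 (0.679 to 0.794) and 0.755 (0.720 to 0.791), as were Fzd10 and Fzd2 with 0.750 and 0.799. Wnt5b and Wnt6 lay on opposite sides, at ratios of 1.35 and 0.767. The intervals of Wnt7b, Dkk2, Fzd1, Fzd3, Fzd10, Fzd2, Wnt5b and Wnt6 exclude 1. This sets these ratios apart from counting error but not from variation among pools. Intervals of some members with smaller differences, Wnt5a and Nkd1 among them, exclude 1 as well. Of the 41 members 22 had a ratio above 1 and 19 below.

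**Figure D3:**
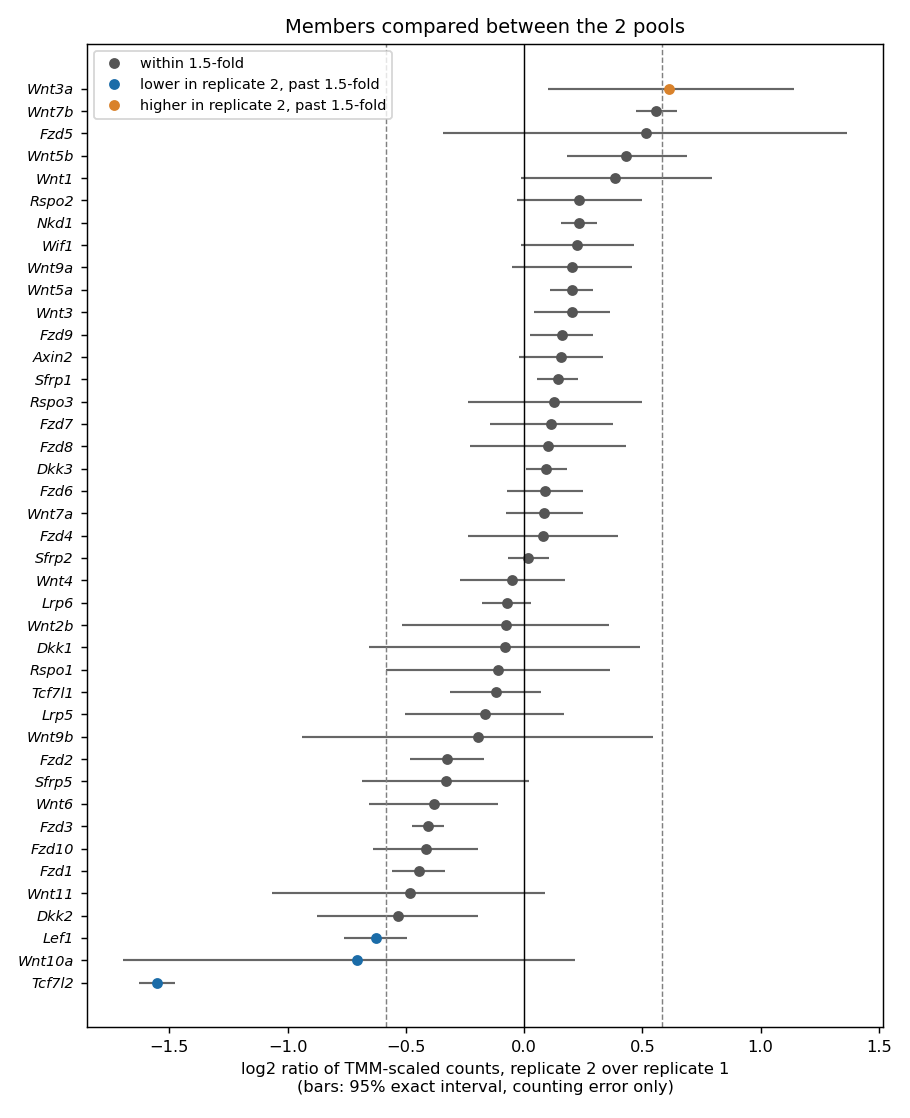
Log2 ratio of scaled counts, replicate 2 over replicate 1, for the 41 members compared, with 95% exact intervals that cover counting error; dashed lines mark 1.5-fold either way. Tcf7l2 stands apart at -1.55, Lef1 and Wnt10a are the other 2 members past the lower line, and Wnt3a at 0.61 is the 1 member past the upper line.

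Other genes of the pathway were taken from lists of textbook members, and 1 of the 80 genes compared, Rnf43, passed 1.5-fold between the pools, where 2.23% of all genes were called higher and 4.22% lower. In ligand secretion and removal 3 of 4 genes were detected and none passed. Wls, which carries Wnt proteins to the cell surface, had 43.8 and 51.1 TPM, Porcn, which attaches their lipid, 37.5 and 42.7 TPM, and Notum, which removes it, 1.75 and 1.84 TPM. Of 16 other receptors and cofactors 13 were detected. Tspan12, a cofactor of Norrin and Fzd4, had 47.7 and 53.0 TPM, Ptk7, a receptor of planar polarity, 25.8 and 27.3 TPM, and Ryk, an atypical Wnt receptor, 11.6 and 11.1 TPM. Rnf43, a ligase that removes Frizzled receptors, was 1.82-fold lower in replicate 2 on 51 and 30 counts. Of 12 other secreted modulators 9 were detected and none passed, with Igfbp4 at 115.6 and 116.2 TPM, Sostdc1, an antagonist of BMP and Wnt, at 17.4 and 21.9 TPM and Draxin, an axon guidance protein, at 12.4 and 13.0 TPM.

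The lists of the destruction complex, of nuclear partners and of planar cell polarity were detected in full and none of their genes passed 1.5-fold. The 18 genes of Dishevelled and the destruction complex had a median of 28.9 ± 2.69 TPM. The casein kinase genes Csnk1a1 and Csnk1e had 190 ± 0.983 and 183 ± 5.45 TPM, and Apc2, a neuronal relative of Apc, had 142 ± 4.72 TPM. The 16 genes of beta-catenin and its nuclear partners had a median of 36.7 ± 1.07 TPM. Aes, a short corepressor of the TLE family, stood at 542 and 581 TPM, the corepressor gene Ctbp1 at 310 and 332 TPM and Ctnnb1, which encodes beta-catenin itself, at 250.2 and 258 TPM. The median of the 13 planar cell polarity genes was 13.4 ± 0.113 TPM. Highest were the polarity cadherin Celsr2 at 35.9 ± 0.841, the membrane protein gene Vangl2 at 35.6 ± 4.35 and the formin gene Daam1 at 18.7 ± 0.184 TPM. Of 8 other common target genes 5 were detected and none passed. Myc had 43.0 and 49.8 TPM, the cyclin gene Ccnd1 29.8 and 26.9 TPM and Tnfrsf19 20.1 and 20.7 TPM. The medians of the destruction complex, nuclear partner and polarity lists thus exceeded those of ligands, at 1.21 TPM, and of Frizzled genes, at 5.05 TPM.

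**Figure D4:**
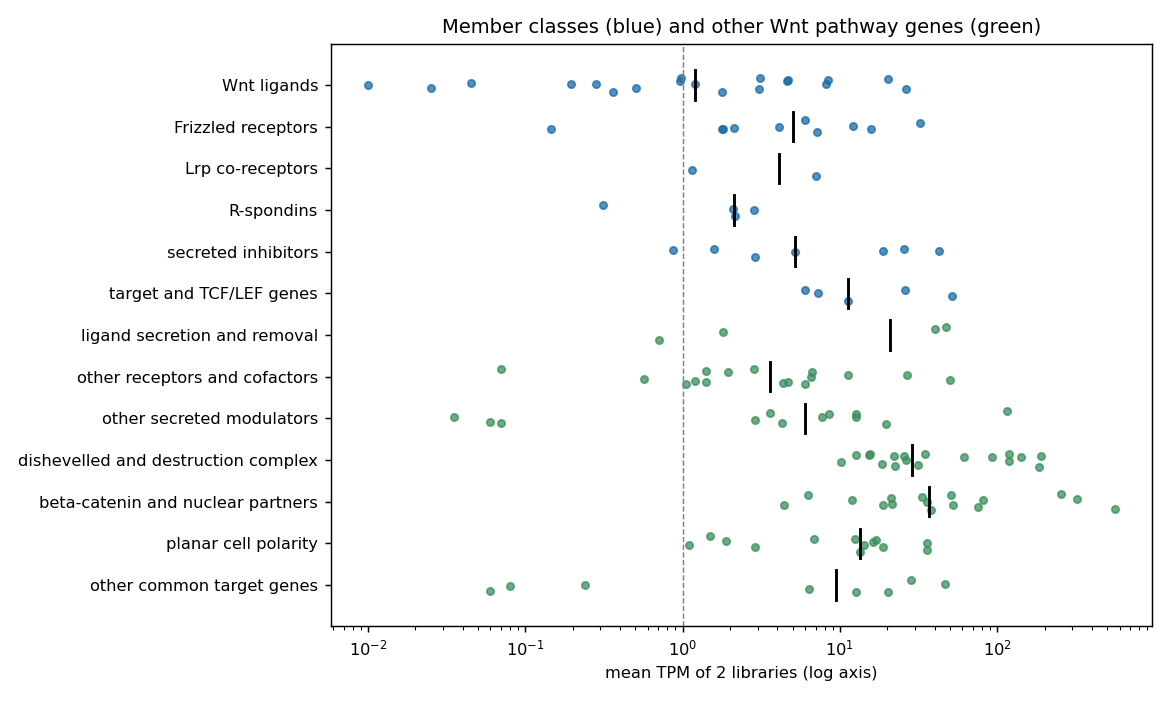
Mean TPM of 2 libraries (log axis) for each gene of the 6 member classes (blue) and of 7 lists of other Wnt pathway genes (green), with the median of each list as a black bar and 1 TPM as a dashed line. Ligands have the lowest median, 1.21 TPM, and the list of beta-catenin and nuclear partners the highest, 36.7 TPM.

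Markers of other brain regions also differed between the pools. Forebrain genes were called in both directions. Lhx2, a gene of forebrain and thalamus, was 4.25-fold lower in replicate 2, with 50.7 and 9.96 TPM, whereas Emx1, Dlx1, Dlx2, Dlx5 and Tbr1 were called higher there, Dlx1 for example at 0.30 and 5.52 TPM. The summed TPM of the 9 forebrain genes was 54.1 in replicate 1 and 24.5 in replicate 2, but without Lhx2 it was 3.43 and 14.5, the opposite direction. Of 8 midbrain and isthmus genes Otx2, En1 and En2 were called lower in replicate 2 and Fgf17 higher, and the list summed to 62.7 and 55.4 TPM. Otx2 had 28.1 and 17.2 TPM and En1 6.37 and 3.03 TPM.

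Further lists for thalamus, for pretectum and tectum, and for habenula were added after these values had been seen. The reason was that Tcf7l2 is known as a marker of thalamus and its neighbours. Of 8 thalamic genes Lhx2, Lhx9 and Shox2 were called lower in replicate 2, with Lhx9 at 50.8 and 12.8 TPM, and the list summed to 217 and 147 TPM. Over the list 4 genes had a ratio above 1 and 4 below, with a median log2 ratio of -0.01. Of the genes not called, Gbx2 had 31.0 and 34.7 TPM, Rora 26.3 and 38.9, Ntng1 14.5 and 17.1, Olig3 9.11 and 9.45 and Prox1 4.87 and 5.48 TPM. Where in the brain the called and the other genes are made was not measured. The lower sum thus came from the 3 called genes. Of 8 genes of pretectum and tectum 5, Otx1, Otx2, Pax7, Tal2 and En1, were called lower, with a median log2 ratio of -0.96, and the list summed to 52.5 and 32.1 TPM. Tal2 had 4.39 and 0.65 TPM. Of 6 habenular genes 5 were compared, and Gpr151 was called higher and none lower, and the list summed to 78.2 and 76.5 TPM. Lhx2, Otx2, En1, Gbx2, Atoh1 and Msx1 each stand in more than 1 marker list. Tcf7l2 and Lef1 were thus lower in the same library as 3 of 8 thalamic and 5 of 8 pretectal and tectal genes. By the same rule 4.22% of all genes compared were called lower. However, 4 of the 8 thalamic genes had a ratio above 1, and no habenular gene was called lower. Lhx2, Otx2 and En1 had been seen lower before these lists were added. The part of these regions in the result was not tested.

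Markers of surrounding cell types also differed. All 11 choroid plexus genes had a ratio above 1 with a median log2 ratio of 0.31, and their summed TPM was 1040 in replicate 1 and 1406 in replicate 2. Roof plate and rhombic lip genes other than Wnt1 and Wnt3a lay above 1 in 6 of 6 compared, with a median log2 ratio of 0.30 and summed levels of 56.4 and 72.3 TPM. Of the 41 members compared 22 lay on the same side, Wnt3a, Wnt1, Wnt5b and Wnt7b among them, and 19 on the other. Meningeal and fibroblast genes lay below 1 in 11 of 12, with a median log2 ratio of -0.35 and sums of 1418 and 1035 TPM, as did 8 of 8 cell cycle genes, with sums of 454 and 379 TPM. Wnt6, Dkk2, Fzd1, Fzd2, Fzd3 and Fzd10 were among the 19 members on that side. Members are named here by the sign of their own ratios, so a shared side does not link them to a cell type. Endothelial, neuronal and radial glial lists had median log2 ratios of 0.02 each. Microglial genes lay below 1 in 8 of 8, with summed levels of 167 and 133 TPM, and red cell genes in 6 of 8, where Epb42 was called lower and the list summed to 15776 and 12390.1 TPM. Sensory ganglion and nerve genes lay below 1 in 5 of 6, with Prph called lower and 188 and 145 TPM in all. Of the sparse lists, skeletal muscle had Actc1 and Tnnc2 called lower, the inner ear Pou4f3 called lower, and cartilage and bone Acan and Matn1 called higher and Ibsp lower. Their summed levels were 23.2 and 15.5 TPM, 11.4 and 7.81 TPM, and 28.6 and 37.0 TPM. The part of any of these cell types in the members' ratios was not tested.

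**Figure D5:**
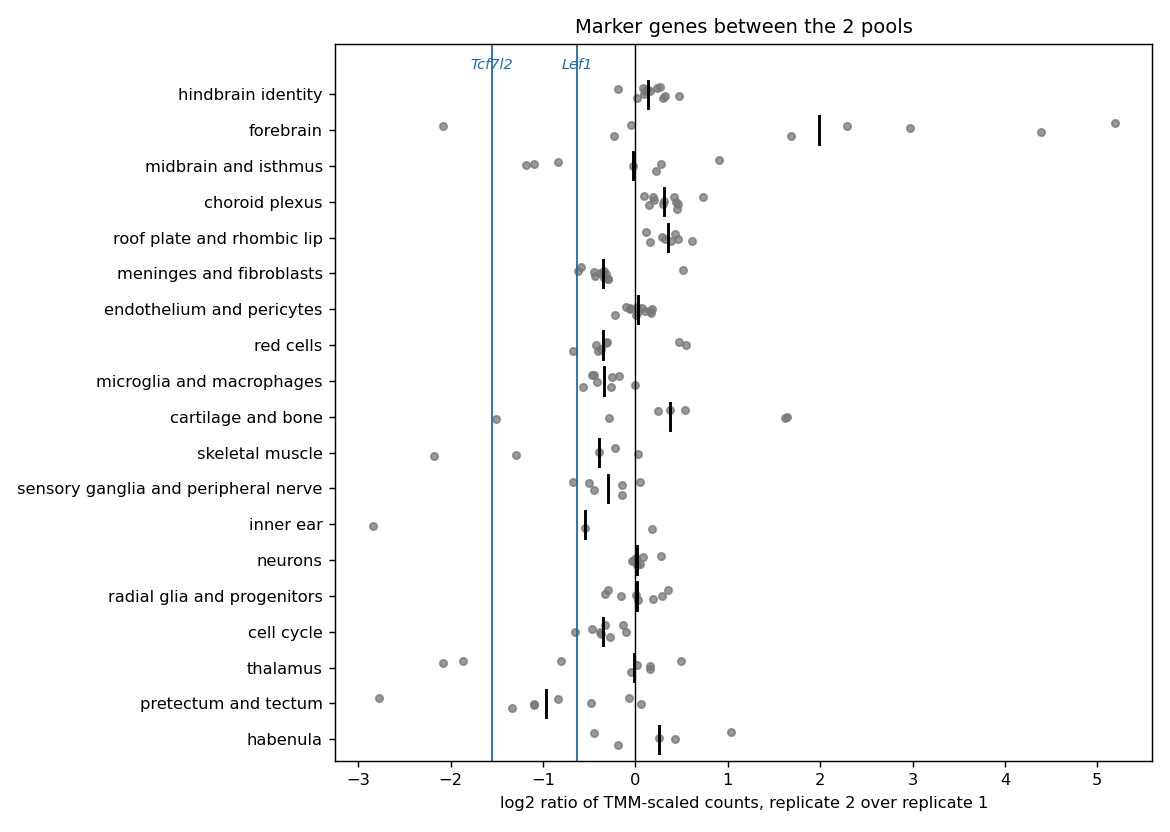
Log2 ratio of scaled counts, replicate 2 over replicate 1, for each marker gene with a mean count of at least 20, by list, with list medians as black bars and blue lines at Tcf7l2 (-1.55) and Lef1 (-0.63). The pretectum and tectum list has the lowest median, -0.96, and hindbrain identity genes lie close to 0 with a median of 0.14.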

How the data were processed

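Gene and transcript tables of 2 libraries were used. The assembly was mm10 and the annotation GENCODE M4, per the notes deposited with the files, with no pooling of libraries. Aligner, quantifier and strand setting were not given in the sources used here. In the deposited tables, the authors' estimated counts per gene and transcript carry no normalization. TPM as deposited is relative to all features of a file, including spike-ins. FPKM from the authors served as an alternative for detection. Bounds of the TPM interval and posterior means, a signal also deposited by the authors, were alternatives too. Gene names and coordinates were read from GENCODE M21 (GRCm38, the same assembly) by identifier without version, and 42462 of 43346 genes matched. Of 6 Tcf7l2 and Lef1 transcripts checked, 1 had a deposited length that differed from its M21 sequence. Exons and coding stretches read from M21 may thus differ from the models that were quantified. Spike-ins held 2.86% and 3.09% of counts and stayed out of library sizes.

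TMM scaling used edgeR 4.0.16 under R 4.3.3. Log2 ratios used a prior count of 0.5 and a mean count of at least 20. Exact Clopper-Pearson 95% intervals came from scipy 1.17.1. The labels do not say that the pools came from separate litters. Of the 47 members 44 had whole counts in both libraries, Wnt5a, Fzd5 and Sfrp2 being the exceptions. Exons of 10 members, Wnt5a, Wnt7b, Wnt11, Fzd5, Fzd6, Rspo3, Sfrp2, Axin2, Lef1 and Tcf7l1, overlap genes on the opposite strand, whose reads may not be told apart. The ratio was checked on simulated data.

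Members and lists were chosen with earlier results of these data known, although the rule for the members uses no measured value. Named were every detected or called member, and of each pathway list the 3 genes of highest mean TPM and every called gene. The sequences of Tcf7l2 and the regional lists were chosen after values were seen. Of the listed pathway genes Tiki1 was not matched, and 3 genes of the marker lists are not reported here. Promoter windows were those of RefSeq on GRCm38.p6. The window for Nkd1 lies 6279 bases from the start of its leading transcript and is not shown. The internal windows of Tcf7l2 and Lef1 that are shown lie farther from theirs. Protein comparisons were not run.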

Additional observations from a re-analysis of the deposited data

How the results depend on the processing

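With no minimum on counts 2 members were higher (Wnt3a and Rspo4) and 6 lower, against 1 and 3, where 7.48% and 9.11% of all genes were called. With spike-in scaling, which shifted the median of all genes by -0.11 on the log2 scale, 0 were higher and 5 lower (Wnt10a, Wnt11, Dkk2, Lef1 and Tcf7l2), where 1.53% and 5.91% of all genes were called, and the members' median log2 ratio was -0.0354 in place of 0.08. None was higher at a mean count of 100, where Lef1 and Tcf7l2 were lower, against 0.6% and 1.42% of genes. TPM ratios with a pseudocount of 1 gave 0 higher and 1 lower (Tcf7l2), against 0.721% and 1.34% of genes. A pseudocount of 0.1 gave 2 higher (Wnt3a and Wnt7b) and 3 lower, with Rspo1 in place of Wnt10a. There 2.4% and 3.51% of genes were called. At a 2-fold threshold 0 were higher and 1, Tcf7l2, was lower, against 0.575% and 1.33% of all genes. Tcf7l2 was called lower under every alternative run. The cause of these changes was not tested. At 2 TPM, 1 co-receptor and 1 R-spondin were detected in place of 2 and 3. By the lower TPM bound, and by FPKM, 1 co-receptor was detected. In each library alone 35 members were detected, with 10 ligands, 9 Frizzled genes, 2 co-receptors, 3 R-spondins, 6 inhibitors and 5 targets. At a gene minimum of 0.5 TPM the leading transcript differed in 2 of 19 members, Wnt11 and Lef1, and with posterior means in 1 of 19, Wnt11. The share over coding genes is given for the minimum of 1 TPM alone. Among values for single members and class medians, 183 alternatives stayed within the spread between libraries or kept their call, 56 moved and 5 lost a call. For a single member with n = 2, the value of 1 library always lies within that spread, so those alternatives could not move. Many that moved came from rescaling TPM over nuclear coding genes, which raised every member. The tally is thus no measure of robustness. No paired analysis was possible because there is 1 group. With 2 pools and 1 library each, variation among embryos and between library preparations was not measured, and members under about 20 counts allow no comparison.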
